A study of Mus musculus with 188 samples.

Results

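The genes described here are nuclear genes named as subunits of oxidative phosphorylation (OXPHOS). They were the 88 of 49585 gene rows whose symbol begins as a complex I (Nduf), complex II (Sdh), complex III (Uqcr), complex IV (Cox4 to Cox8) or ATP synthase (Atp5) subunit gene, after 6 rows named as pseudogenes were left out. No expression value entered that choice. Some OXPHOS genes have other symbols and were not included. Complex I contributed 38 genes, complex II 4, complex III 8, complex IV 21 and the ATP synthase, also called complex V, 17. Ndufa4 and Ndufa4l2 were placed with complex IV, because the NDUFA4 protein is a cytochrome c oxidase subunit. By their annotation, 4 of the 88 are processed pseudogenes without a pseudogene symbol.

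The cells came from tail epidermis of 20 day old Lrig1-CreERT2/RosaYFP mice and formed 1 group of single cells, 94 on each of 2 plates. The sort kept cells that lacked Cd34 and the YFP reporter, which marks cells descended from Lrig1-expressing cells once the Cre is active, and that carried integrin alpha 6, so it was aimed at basal keratinocytes of the interfollicular epidermis. Each cell was a Smart-seq2 library, made by copying polyadenylated RNA into full-length cDNA. No label names an animal, a sex or the use of tamoxifen, so the cells were treated as 1 sample and no test between groups was possible. All values below are descriptions over cells.

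Oxidative phosphorylation passes electrons from NADH and succinate through complexes I to IV to oxygen, and the proton gradient that complexes I, III and IV build drives the ATP synthase. Most subunits are made in the cytosol from nuclear genes and imported, while a small core is translated inside the mitochondrion from its own genome. Apart from complex II, whose subunits are all nuclear, the assembled complexes hold both kinds in fixed ratios. In epidermis, mitochondrial activity has been linked to the onset of keratinocyte differentiation, which makes Krt10, a keratin of cells that leave the basal state, a natural measure to set beside these genes.

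Gene counts ranged from 79868 to 1093805 a cell (median 369991), of which 1916 to 28537 fell in the OXPHOS genes. Values are CPM, a gene's count scaled to a common total over all genes of the cell. The basal keratins Krt14 and Krt5 averaged 32410 ± 14096 and 20310 ± 7609 CPM (SD over all cells), and Krt10 ran from 185.4 to 45289 CPM with a median of 882. Pooled over all cells, the summed marker lists of other cells held 6.06 CPM for T cells, 30.2 for Langerhans cells and 17.1 for melanocytes. They held 26.7 CPM for fibroblasts, 2.35 for endothelial cells and 0.0517 for Merkel cells. In the cell where each was highest, these sums were 159.9, 383, 602, 553, 220 and 3.72 CPM in the same order. Cd3e, Ptprc, Cd207, Pdgfra, Cdh5 and Krt20 were among the genes without a read. However, 2 Langerhans cell genes, 1 T cell gene and 1 fibroblast gene reached 10 CPM in at least 10% of cells. The list for hair follicle bulge held 27.8 CPM, with Cd34 at 0 and a highest value of 443 CPM in a cell. The list for sebaceous gland and upper hair follicle held 418 CPM, with a median of 305 and a highest value of 7031 CPM in a cell, and 6 of its 7 genes were among those tested, Krt17 highest. Its part in the results below was not tested. From genes that a single well dominated, reads carried over from other wells were estimated at a median of 12% of a cell's counts and at most 64.1%. In 3 cells the spike-in share exceeded 3%, and those cells were among the 6 with the highest OXPHOS sum.

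All 5 complexes were expressed in these keratinocytes and the summed level was even across cells. The 88 genes together ran from 14985 CPM in plate 1 well A12 to 38230 CPM in plate 1 well G10, with a median of 24652 CPM. The mean was 24584 ± 3288 CPM (SD over all cells), a coefficient of variation of 13.4%, and the plate means of 24464 and 24703 CPM differed by far less than the spread over cells. Without the 3 cells of high spike-in share the mean was 24439 CPM. The middle 50% of cells lay between 22602 and 26333 CPM. The sum over the 13 protein genes of the mitochondrial genome was 24371 ± 6002 CPM (SD over all cells). It rested on 7 genes, with the other 6 listed at 0 in every cell, so the sizes of the nuclear and mitochondrial sums cannot be compared.

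Complex I made up 31.5% of the summed OXPHOS level with 7737 ± 1309 CPM, the ATP synthase 27.4% with 6733 ± 1123 CPM and complex IV 24.2% with 5940 ± 1194 CPM (SD over all cells). Complex III held 14.1% with 3478 ± 732 CPM. Complex II, the smallest with only 4 genes, held 2.83% with 695 ± 297 CPM and had the widest relative spread, 42.8% against 16.7% to 21.05% for the others. The plate means of each complex differed by less than the SD over cells. The shares leave out OXPHOS genes with other symbols, of which 5 listed and found held 982 CPM pooled over all cells.

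**Figure D1:**
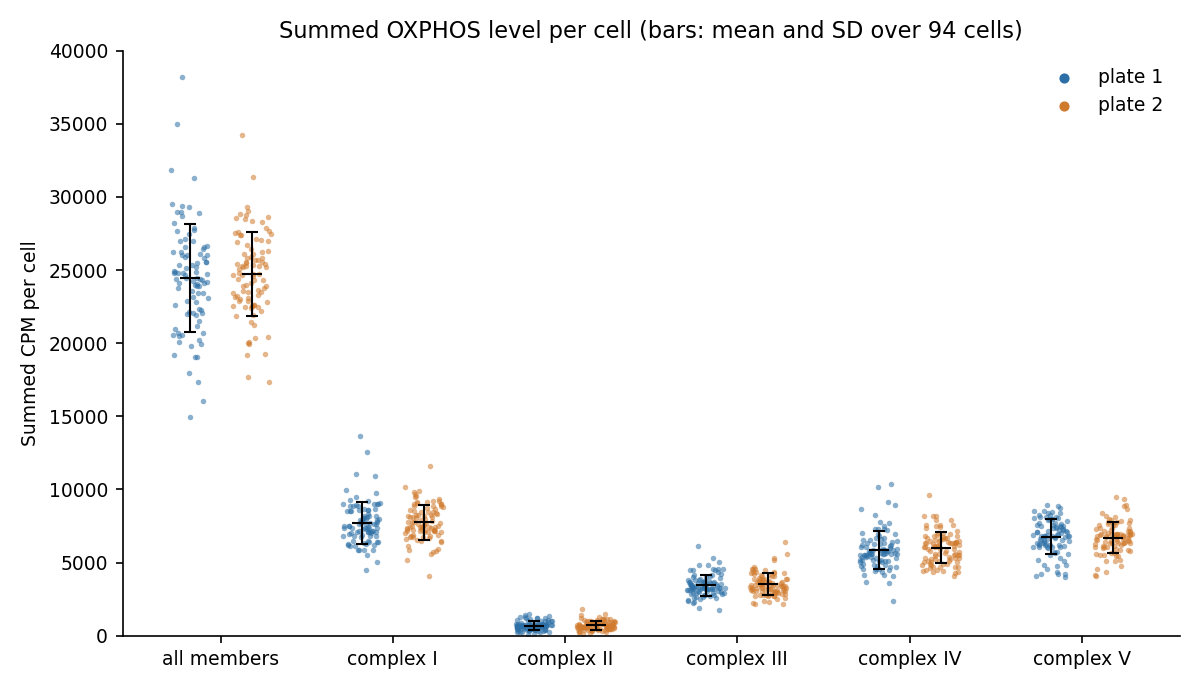
Summed CPM per cell (vertical axis, linear from 0) for all 88 nuclear OXPHOS genes and for each complex, 1 point per cell, blue for plate 1 and orange for plate 2, with bars for the mean and SD over 94 cells. The plates overlap in every column, and complex II sits near the bottom at a mean of 695 CPM.

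Because longer transcripts give more fragments in this method, levels of different genes were compared per kb of the principal annotated transcript. On that scale the median gene tested stood at 506 CPM per kb in complex III, 451 in complex IV, 315 in the ATP synthase, 199 in complex I and 87.1 in complex II. Tested genes are those with at least 10 CPM in at least 10% of cells, 77 of the 88. When all annotated exons were merged, which adds retained introns, the medians were lower, at 282 for both complex III and complex IV and 187.3, 115.8 and 81.3 CPM per kb for the other 3 in the same order.

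In complex I, the NADH dehydrogenase, the highest genes per kb were 3 accessory subunits. Ndufb9 stood at 859 CPM per kb, Ndufa2 at 594 and Ndufb8 at 536. In single cells Ndufb9 ran from 94.5 through a median of 577 to 1556 CPM, so every cell had reads of it. Reads carried over from other wells may be among them. For the OXPHOS genes together these were estimated at a median of 12.4% of a cell's counts and at most 61.1%. The 7 core subunits, which carry the flavin, the iron-sulfur clusters and the electron path, had a median of 154.6 CPM per kb against 254 for the 28 other tested subunits. Within the core, Ndufs7, which holds the terminal iron-sulfur cluster, was highest at 393 CPM per kb, and Ndufs1, the large iron-sulfur subunit, lowest at 28.8, both chosen after their values were seen. The lowest of all complex I genes with a read were Ndufs6b and Ndufa11b, annotated as processed pseudogenes, at 0.555 and 0.170 CPM per kb. They lay far below every tested gene of the complex.

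Complex II, succinate dehydrogenase, which also belongs to the citric acid cycle, was led by Sdhb, the iron-sulfur subunit, at 241 CPM per kb. Sdhd, a membrane anchor, followed at 129.02 CPM per kb. Sdha, the flavoprotein that oxidises succinate, and Sdhc, the other anchor, were at 45.2 and 41 CPM per kb. The 4 subunits stand in equal numbers in the complex, while their transcript levels per kb spanned 41 to 241. In single cells Sdha ran from 0 through 84.6 to 790 CPM and Sdhb from 6.91 through 252 to 991 CPM, so the ranges overlapped widely.

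In complex III, the cytochrome bc1 complex, small accessory subunits led. Uqcr10 stood at 910 CPM per kb and Uqcr11 at 839, ahead of Uqcrc1, a core protein of the matrix side, at 713. Uqcrc1 had the highest absolute level of the complex, from 160 through 1143 to 3489 CPM. Its partner Uqcrc2 was the lowest of the 8 genes at 113.5 CPM per kb, below Uqcrfs1, the Rieske iron-sulfur protein, at 211.

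Complex IV, cytochrome c oxidase, held the gene with the highest level of the whole group. Cox4i1, the common form of subunit 4, stood at 2384 CPM per kb and ran from 727 through 1765 to 3829 CPM in single cells, so that no cell was below 727 CPM. Cox8a followed at 1087 and Cox6b1 at 996 CPM per kb. The lowest genes with a read were Cox7a1 and Cox4i2 at 0.127 and 0.380 CPM per kb. Cox7c, a subunit with no other form, stood at 39.6 CPM per kb and was named after its value was seen.

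In the ATP synthase, Atp5b, the catalytic beta subunit, stood at 826 CPM per kb, Atp5g3, a gene of the c ring, at 783 and Atp5j, coupling factor 6 of the peripheral stalk, at 725. Atp5b ran from 490 through 1516 to 3384 CPM and Atp5a1, the alpha subunit, from 170.8 through 1061 to 2175 CPM. The alpha and beta subunits form the catalytic head in equal number. Their levels per kb were 431 and 826, a gap that shrank to 340 and 373 with merged exons. Atp5g2 and Atp5s were lowest at 4.33 and 7.13 CPM per kb.

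**Figure D2:**
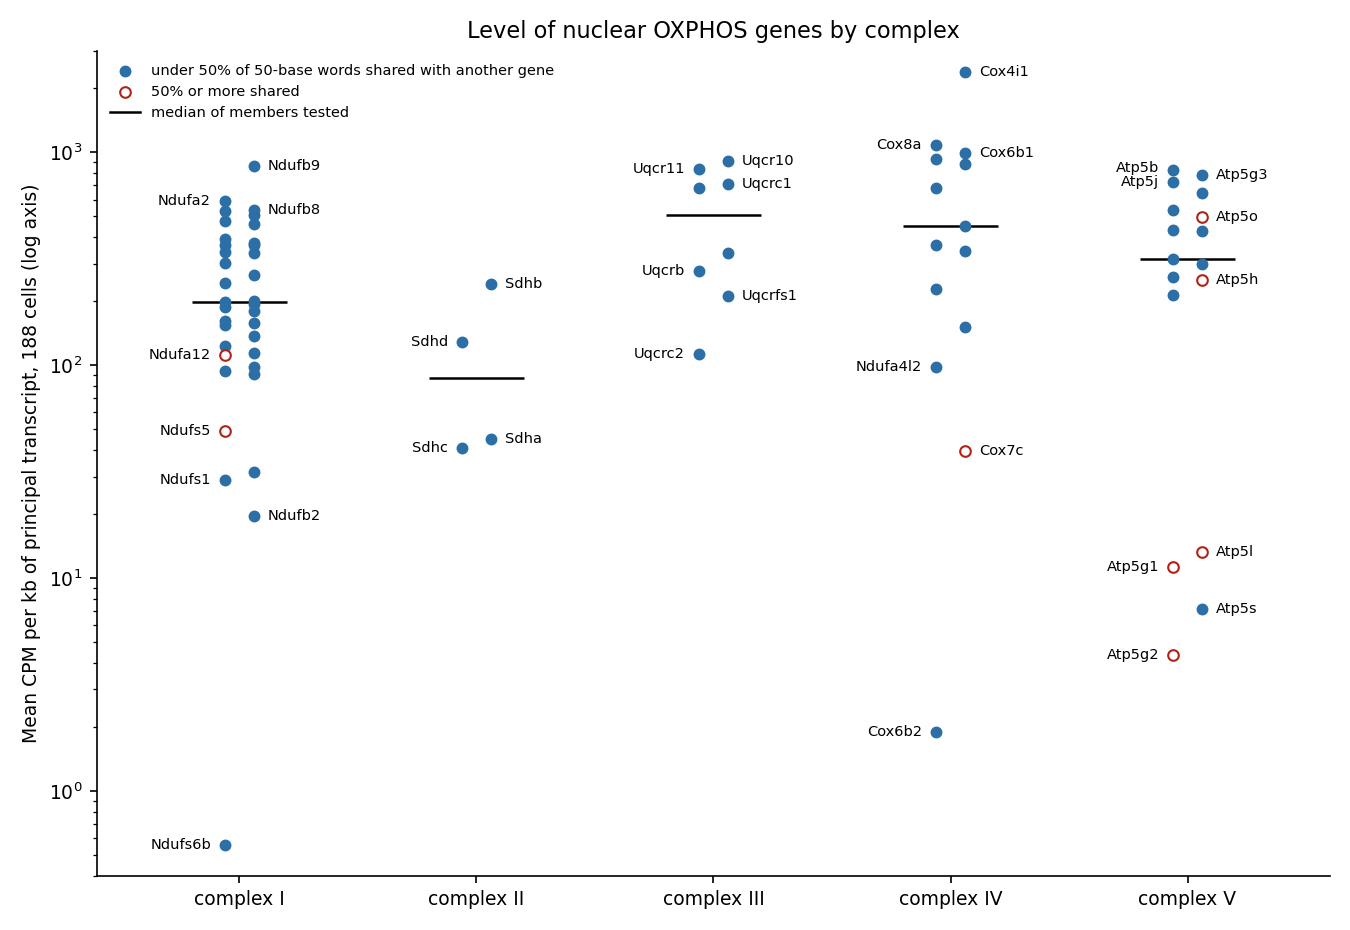
Mean level of 79 nuclear OXPHOS genes in CPM per kb of principal transcript (vertical log axis) by complex over all cells. Members below 0.5 are not drawn, open red circles mark genes that share at least 50% of their 50-base words with another annotated gene, and black lines are medians of tested genes. Cox4i1 is highest at 2384, and open circles include the low genes Cox7c, Atp5g1, Atp5g2 and Atp5l.

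Low values of some members coincided with sequence shared with other annotated genes. The share of each gene's 50-base words found in transcripts of another annotated gene was at least 50% for 10 members, with a median level of 27.4 CPM against 254 CPM for the other 78. The 10 include Cox6c2 and Ndufb4c, with 7 and 0 reads, whose closest genes are the members Cox6c and Ndufb4. Atp5g2 shared 100% of its words, Atp5l 84.8%, Atp5g1 66% and Cox7c 53%. Atp5h and Atp5o shared 66.6% and 52% and still averaged 171.98 ± 89.97 and 417 ± 185.2 CPM (SD over all cells). Levels of the genes with shared words are therefore uncertain, and the part of the sharing in them was not tested.

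Several subunits have alternative genes that are used in other tissues, and in these cells 1 form of each prevailed. For subunit 4, Cox4i1 averaged 1824 ± 514 CPM (SD over all cells), while Cox4i2, known from lung, had 16 reads in 3 cells. For subunit 6a, Cox6a1 ran from 68.2 through 477 to 1164 CPM and the muscle form Cox6a2 had no read. For subunit 8, Cox8a ran from 177.3 through 567 to 1673 CPM and neither Cox8b nor Cox8c had a read.

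The same held for the remaining forms. Cox6b1 averaged 616 ± 278 CPM (SD over all cells) and Cox6b2, known from testis, had 86 reads in 10 cells. Cox7a2 averaged 446 ± 208 CPM (SD over all cells) and the muscle form Cox7a1 had 2 reads in 2 cells, while the related Cox7a2l, a factor of respiratory supercomplexes, ran from 0 through 138.6 to 684 CPM. Cox7b ran from 30.6 through 323 to 759 CPM and Cox7b2 had no read. For a gene without a read, the limit set by 3 cells in all those sequenced is 1.60% of cells, for counting error only. Striated muscle and brown fat, where several of the unused forms are known, held summed marker lists of 8.71 and 0.258 CPM pooled over all cells. Few of the pooled reads thus came from such cells, although the highest values in a cell were 299.6 and 27.9 CPM.

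Ndufa4l2 was the alternative gene with an appreciable level. It is a paralog of Ndufa4 known to be induced by hypoxia. Ndufa4 ran from 176.8 through 526 to 1464 CPM, and Ndufa4l2 from 0 through 42.95 to 981 CPM. The median of Ndufa4l2 lay below the lowest Ndufa4 level, while its upper cells overlapped the range of Ndufa4. For the c ring of the ATP synthase, whose 3 genes encode the same mature protein, Atp5g3 averaged 566 ± 234 CPM, Atp5g1 52.9 ± 41.9 and Atp5g2 3.17 ± 8.12 CPM (SD over all cells), the last 2 with the shared words given above.

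**Figure D3:**
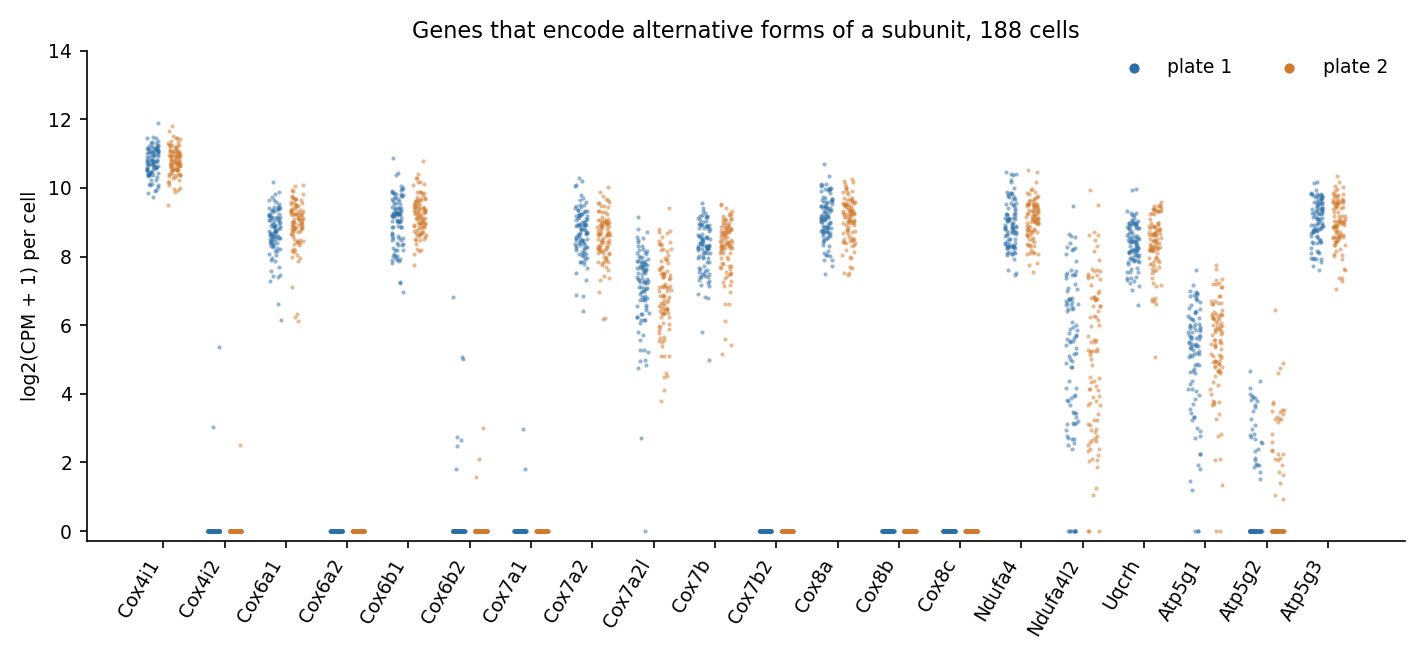
log2(CPM + 1) per cell (vertical axis) of genes that encode alternative forms of a subunit, 1 point per cell, blue for plate 1 and orange for plate 2. Cox4i2, Cox6a2, Cox6b2, Cox7a1, Cox7b2, Cox8b and Cox8c lie at 0 in nearly all cells, whereas Ndufa4l2 spreads from 0 to about the level of Ndufa4.

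Promoter sequence was examined as a feature the choice of genes did not use. In the RefSeq promoter windows on GRCm38.p6, each from 250 bases before to 50 after an annotated start, 64 of the 77 tested genes were found. The NRF1 letters, GCGCA and GCGC with any base between them, are bound by nuclear respiratory factor 1. They were searched on both strands and stood in the windows of 17 of these genes, 26.6%, against 5.19% of all 27025 genes in the table and 13.4% of the 7485 of them that were tested here. The ETS letters CCGGAAG stood in 16, 25.0%, against 23.5% of the tested genes, a share near the background. YY1 letters, AAGATGGCG, stood in 7 genes, 10.9% against 4.34%, and ERRA letters, TCAAGGTCA, in 2, Atp5g3 and Sdhd, 3.12% against 0.281%. No 2 of these motifs overlapped in a window. The 17 genes with the NRF1 letters had a median of 340 CPM per kb and a median rho with the other OXPHOS genes of 0.14, beside 242 and 0.18 for the 47 without.

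The following stretches show what such a promoter looks like in each complex. Among the genes considered for print, each was the highest per kb of its complex that met the following condition. Its NRF1 letters, with 25 bases on each side, lay in the window and wholly before the start in both RefSeq and GENCODE. In complex III no gene met it, so the ETS letters were used in the same way. Sequences run 5′ to 3′ on the strand of the gene, and capitals mark the motif. The Ndufa11 stretch is chr17:56717677-56717736 on the plus strand, its motif 60 to 51 bases before the start.
Ndufa11: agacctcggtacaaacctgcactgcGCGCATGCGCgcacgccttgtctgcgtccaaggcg
The Sdhd stretch is chr9:50603894-50603953 on the minus strand, 79 to 70 bases before the start.
Sdhd: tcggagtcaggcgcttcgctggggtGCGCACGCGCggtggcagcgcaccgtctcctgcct
The Uqcr11 stretch, with the ETS letters, is chr10:80406856-80406912 on the minus strand, 66 to 60 bases before the start.
Uqcr11: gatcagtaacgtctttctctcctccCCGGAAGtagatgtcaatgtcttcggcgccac
The Cox6a1 stretch is chr5:115349086-115349145 on the minus strand.
Cox6a1: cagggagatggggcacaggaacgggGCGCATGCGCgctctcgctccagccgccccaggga
The Atp5h stretch is chr11:115420026-115420085 on the minus strand.
Atp5h: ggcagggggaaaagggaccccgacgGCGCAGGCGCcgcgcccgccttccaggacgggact
A match is a run of letters, not a measured binding site.

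Cell to cell differences of single OXPHOS genes were set against spike-in RNAs. The squared coefficient of variation of each gene was divided by the trend of the ERCC spike-in RNAs, which are added in equal amount to every well. Of the 71 members with a mean of at least 50 CPM, 0 had a ratio of at least 2 on both plates, while 2.66% of all 3685 genes of that level did. The median ratio was 0.62 for the OXPHOS genes and 0.84 for all genes, both below 1, so the typical gene varied less than the spike-in trend and the trend is a strict measure. With a limit of 1.5 there were 3, Uqcrc1, Atp5b and Ndufs7, 4.23% against 5.64% of all genes, a share near the background. Across the 77 tested members, the lower plate ratio was higher for genes of higher mean level, with a Spearman's rho of 0.54. The part of level in these 3 ratios was not tested. Down to a mean of 20 CPM, 0 of 74 members passed the limit of 2, against 1.61%. Uqcrc1 had ratios of 1.99 and 1.92 on the plates, the nearest to the limit. Ndufb10, with 1.96 on plate 1 and 0.61 on plate 2, showed how far a ratio could differ between plates.

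The summed OXPHOS level had a rho near 0 with Krt10, the marker of cells that start to differentiate. Spearman's rho across cells came to 0.019, and Pearson's r of log2 values to -0.052. The plates gave 0.035 and -0.016, and rho was 0.034 without the 2 cells farthest from the median Krt10. The cells share libraries, denominators and plates, so all such correlations are given as descriptions. The cell with the most Krt10, plate 2 well A10 at 45289 CPM, held 17664 CPM of OXPHOS genes, the next, plate 1 well F6 at 43297 CPM, 24791 CPM, and the cell with the least, plate 2 well C2 at 185.4 CPM, 22187 CPM. The cell with the most Krt10 was among the lower ones of all cells in its OXPHOS sum. Krt10 itself was lower in deeper libraries, with rho of -0.26 with the total count, as was the OXPHOS sum with -0.21.

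No single OXPHOS gene was counted with Krt10 by the rule used, a rho past 0.3 in size and of like sign on each plate. That was 0 of 77 in each direction, where 0.631% of all 9344 tested genes but Krt10 itself, the members included, were counted as higher and 0.471% as lower. With shares this small a count of 0 in 77 is near the background, here and at the same limit with the measures below. The median rho was -0.0066 for the OXPHOS genes and -0.0046 for all genes, and 35 of the 77 were positive, 45.5% against 47.9% of all genes. Nearest to the limit on the higher side were Atp5j, with 0.16 and 0.25 on the plates, Ndufs1, with 0.16 on its nearer plate, and Ndufa11, with 0.21 and 0.14. On the lower side were Uqcrh, a hinge protein of complex III, with -0.19 on both plates, Uqcrc1, with -0.18 and -0.14, and Atp5g3, with -0.20 and -0.14. By complex, rho with Krt10 was 0.12 for complex I, -0.11 for complex II, -0.097 for complex III, -0.033 for complex IV and 0.067 for the ATP synthase. At a limit of 0.2, 0 members were counted in either direction, beside 1.82% and 1.96% of the tested genes. Complex II reached -0.31 on plate 1 and -0.10 on plate 2 with a score over 11 early differentiation genes in place of Krt10. On that score complex I had 0.24 and 0.020 on the plates, complex III 0.026 and -0.21, complex IV 0.093 and -0.15, and the ATP synthase 0.063 and 0.099.

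**Figure D4:**
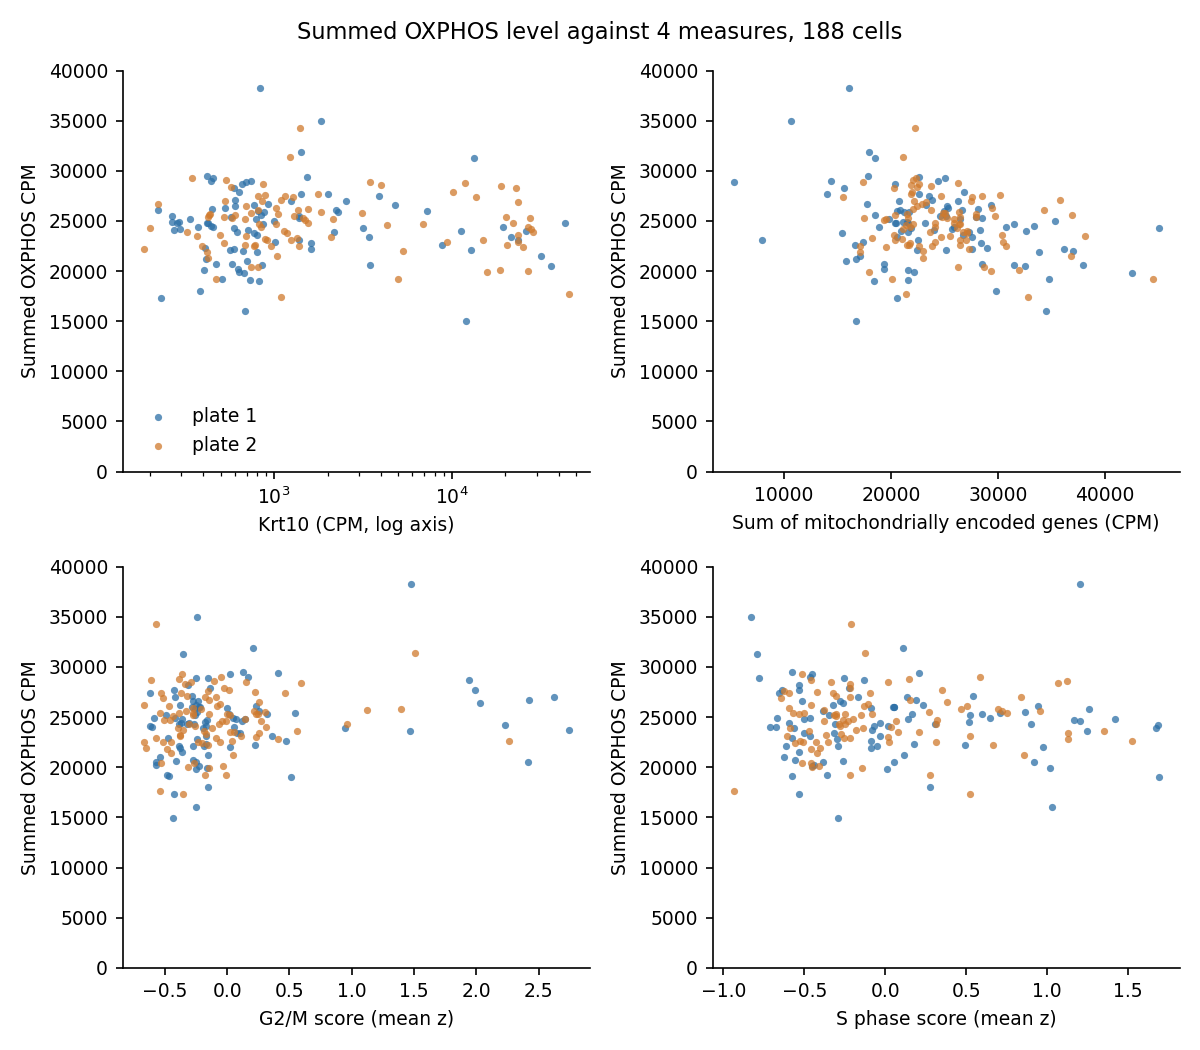
Summed CPM of the 88 nuclear OXPHOS genes (vertical axes, from 0) in each cell against Krt10 (log axis), the summed mitochondrially encoded genes, the G2/M score and the S phase score, blue for plate 1 and orange for plate 2. The clouds are flat against Krt10, with rho of 0.019, and tilt slightly down against the mitochondrially encoded genes, with rho of -0.18.

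The sum had a weak positive relation to the G2/M score, the mean z score of 38 genes expressed before and during mitosis, with rho of 0.16 and r of 0.17. On plate 1 rho was 0.22 and on plate 2 it was 0.090. Complex IV had the highest of the complexes, 0.29, with 0.41 on plate 1 and 0.19 on plate 2, ahead of the ATP synthase at 0.14, complex II at 0.063, complex I at 0.059 and complex III at 0.019. The order of the others rested on single genes: without Uqcrc1 complex III stood at 0.15, with 0.19 and 0.12 on the plates, and without Sdhb complex II stood at 0.13. Without Cox4i1 the value of complex IV was 0.23, without the 3 cells of high spike-in share 0.32, and with reads expected from other wells subtracted 0.21. With cells thinned to 150000 counts that value was 0.26, and with scran size factors 0.22. Both complex IV and the G2/M score were lower in deeper libraries, with rho of -0.26 and -0.18 with the total count. The part of depth in their relation was not told apart. The 5 cells with the highest G2/M score held 5070 to 6937 CPM of complex IV genes, beside a mean of 5940 CPM over all cells, and 3 of the 5 were above that mean.

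Of the 77 genes, 0 passed the limit of 0.3 on both plates with G2/M in either direction, where 0.451% of the tested genes, members included, were counted as higher and 0.0% as lower. At a limit of 0.2, 0 were counted as lower, against 0.182% of all genes. As higher 3 were counted, 3.90% against 2.36% of all genes, a share near the background. They were Atp5j2, the f subunit of the ATP synthase membrane part, with 0.24 and 0.30 on the plates, Cox8a with 0.23 and 0.21, and Cox7b with 0.22 and 0.21. The lowest by the nearer plate were Atp5h at -0.081, Ndufb7 at -0.052 and Uqcrc1 at -0.042. The share of positive members was 70.1%, beside 63.6% of all genes.

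With the S phase score, the mean z score of 28 replication genes, the sum had rho of -0.0068 and r of -0.025, with -0.076 on plate 1 and 0.091 on plate 2. Of the 77 genes 0 passed the limit in either direction, where 0.966% of the tested genes were counted as higher and 0.107% as lower. At 0.2 the count was again 0 each way, beside 3.75% and 0.408%. Positive values were found for 62.3% of members and 71.5% of all genes. Atp5g3 was the highest, with 0.30 and 0.18 on the plates, followed by Uqcr10 with 0.17 and 0.21 and Sdhc with 0.15 and 0.20. The lowest were Ndufb3 with -0.13 and -0.25, Ndufa6 with -0.17 and -0.099, and Ndufb7 with -0.096 on its nearer plate. The S phase score was higher in cells with more genes read, with rho of 0.47, a measure with which the OXPHOS sum had rho of -0.22.

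By CPM, the nuclear OXPHOS genes did not track the subunits encoded in the mitochondrion itself. The 13 protein genes of the mitochondrial genome summed to between 5302 CPM in plate 1 well F2 and 44999 CPM in plate 1 well C2, with a median of 23677 CPM. That sum rested on 7 genes. The genes mt-Co2, mt-Co3, mt-Atp6, mt-Nd3, mt-Nd4l and mt-Atp8 were listed at 0 in every cell, and the first 5 of them share 98% to 100% of their 50-base words with annotated pseudogenes on chromosome 1, while mt-Atp8 shares 0%. Across cells the nuclear sum and the mitochondrial sum had rho of -0.18 and r of -0.24, with -0.25 on plate 1 and -0.091 on plate 2. This was not particular to OXPHOS genes. The sum over cytosolic ribosomal protein genes had rho of -0.30 with the mitochondrial sum, with -0.34 and -0.26 on the plates. Well F2, with the least mitochondrial RNA, held 28882 CPM of nuclear OXPHOS genes and well C2, with the most, 24283 CPM.

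The ATP synthase genes had the lowest correlation with the mitochondrial sum, -0.27, with -0.31 and -0.24 on the plates. Complex I stood at -0.17, complex II at -0.099, complex III at -0.050 and complex IV at -0.017. Because both sums are shares of the same total, the denominator without mitochondrial genes was tried, which gave -0.20 for the ATP synthase. The other complexes moved toward 0 or above it. Complex I stood at -0.085, with -0.20 and 0.054 on the plates, complex II at -0.067, complex III at 0.020 and complex IV at 0.055. By CPM, the ATP synthase without Atp5b stood at -0.17. Atp5b was the only member below -0.2 on both plates, with -0.26 and -0.22, 1.30% of members against 0.429% of all genes. At the limit of 0.3, 0 of 77 members were counted in either direction, beside 0.0107% and 0.0% of the tested genes, and at 0.2 none as higher, beside 0.589%. Positive values were found for 35.1% of members and 54.5% of all genes. In other lists, 2 of 31 proteasome, 4 of 17 glycolysis and 7 of 18 citric acid cycle genes were positive. Of 42 assembly factors of the respiratory complexes, 23 were. The highest members were Ndufc1 with 0.11 and 0.12, Uqcr10 with 0.11 and 0.17, and Ndufv3 with 0.13 and 0.071. After Atp5b the lowest were Ndufs5 with -0.19 and -0.16, and Cox5a with -0.14 on its nearer plate.

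For complexes I, III and IV the mitochondrial genes of the same complex could be set beside the nuclear ones. For the ATP synthase they could not, because mt-Atp6 and mt-Atp8 were at 0. Complex I had rho of -0.13 with the mitochondrial complex I genes, complex III -0.099 with mt-Cytb and complex IV -0.038 with mt-Co1, the complex IV gene with reads there. The mitochondrially encoded genes, in contrast, varied together, with a mean rho of 0.52 over 21 pairs of the 7 genes read.

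All of these relations depended on what a cell's counts were divided by. CPM gives a gene's share of the cell's RNA. Counts per ERCC count instead follow the amount of RNA in the well, and the OXPHOS counts then ran from 0.579 to 10.2 per spike-in count with a median of 4.01, a coefficient of variation of 40.0%, close to the 37.6% of all gene counts. On that scale the sum had rho of 0.43 with Krt10, 0.34 with the G2/M score, 0.44 with the S phase score and 0.72 with the mitochondrial genes. With Krt10 8 of 77 genes passed the limit of 0.3 on both plates, 10.4% against 2.75% of all genes, with G2/M 5, 6.49% against 1.51%, with S phase 15, 19.5% against 4.77%, and with the mitochondrial genes 37, 48.1% against 8.95%. Both sides of such a relation carry the RNA amount of the cell and the error of its spike-in count, whose parts were not told apart. Of the 77 members 71 averaged at least 50 CPM, a level that 3685 genes reached where 9345 were tested. The part of level in the shares above was not tested.

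**Figure D5:**
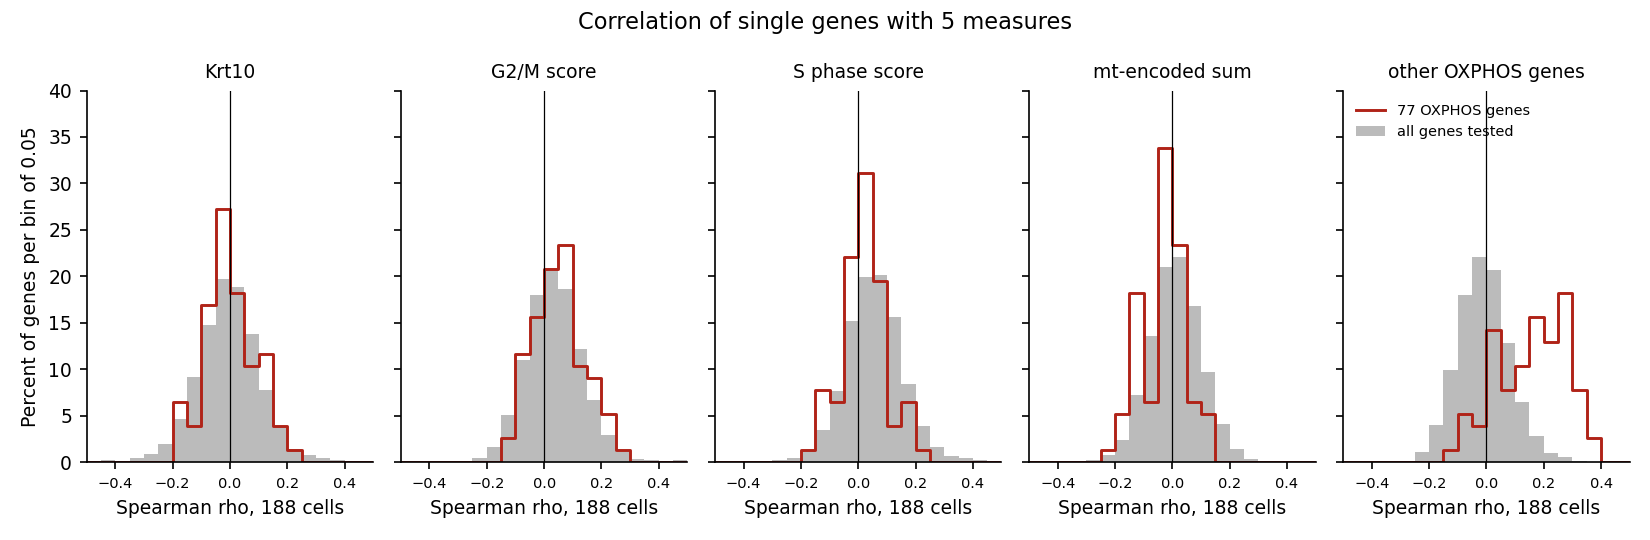
Distribution of Spearman's rho over all cells (horizontal axes) between single genes and Krt10, the G2/M score, the S phase score, the mitochondrially encoded sum and the sum of the other OXPHOS genes, as percent of genes per bin of 0.05. The red line of the 77 OXPHOS genes overlaps the grey bars of all tested genes in the first 4 panels, shifted to the left against the mitochondrial sum, and lies to their right in the fifth, where the medians are 0.18 and -0.011.

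Among themselves the OXPHOS genes varied together only slightly. The mean Spearman's rho over 2926 pairs of members was 0.041, with 0.050 on plate 1 and 0.032 on plate 2, beside 0.012 over all pairs of tested genes. Pairs of the same complex had a mean of 0.040 and pairs of different complexes 0.042. Complex IV was the most coherent with 0.095, followed by 0.036 in the ATP synthase, 0.035 in complex I, 0.019 in complex II and 0.018 in complex III. The proteasome, another large complex of nuclear subunits, had a mean of 0.072, whereas 26 S phase genes had 0.29 and 11 early differentiation genes 0.33.

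No pair of members reached 0.3 on both plates, where 0.00707% of all pairs of tested genes did. At 0.2 there were 34 of 2926, 1.16% against 0.205%. The highest pair was Uqcr10 with Uqcrb, both accessory subunits of complex III, with 0.42 and 0.28 on the plates. Next came Ndufb6 with Uqcr11, from different complexes, with 0.27 and 0.35, and Atp5e with Ndufb2, with 0.27 and 0.26. Cox4i1 with Ndufa4, both in complex IV, had 0.34 and 0.26.

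Against the sum of the other members, most members had a positive rho. Of 77 members 69 had a positive rho, 89.6% against 44.7% of all genes, and the median was 0.18 against -0.011. Among other lists, 28 of 31 proteasome and 13 of 17 glycolysis genes were positive with the OXPHOS sum, at median rho of 0.093 and 0.057. Of citric acid cycle genes 10 of 18 were, and of assembly factors 23 of 42. A high share of positive values was thus not particular to OXPHOS genes. Counted at 0.3 were the members Uqcrb, with 0.39 and 0.36 on the plates, Ndufa4, with 0.41 and 0.31, and Cox4i1, with 0.30 on its nearer plate. These are 3.90% of members against 0.107% of all genes, and none was counted at -0.3, where 0.0107% were. At 0.2 there were 20, 25.97% against 0.845%, and none at -0.2, against 0.31%. The lowest were Atp5l with -0.19 and -0.075, Ndufa4l2 with -0.083 and -0.061, and Sdha with -0.15 and -0.023. Across the 77 members this rho was higher for genes of higher mean level, with a Spearman's rho of 0.48, and lower for those of longer transcript, with -0.49. Genes are not independent replicates in such a correlation.

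Outside the group, the genes most like the OXPHOS sum were mostly those of the cytosolic ribosome. Of the 10 highest by the nearer plate, 8 were ribosomal protein genes, Rps14, Rpl32, Rpl41, Rpl30, Rpl39, Rps25, Rplp1 and Rpl37a, and the others were Rps27l, a relative of Rps27, and Snrpg, a core protein of spliceosomal particles. Rps27l was first, with 0.51 on plate 1 and 0.37 on plate 2. Rplp1 had 0.29 and 0.50. The sum over all cytosolic ribosomal protein genes, formed after these genes were seen, had rho of 0.48 and r of 0.52 with the OXPHOS sum, with 0.47 and 0.49 on the plates. By complex it was 0.41 for complex IV, 0.39 for complex I, 0.36 for the ATP synthase, 0.23 for complex III and 0.10 for complex II. The OXPHOS genes have short transcripts, with a median of 865 bases against 2969 bases for all tested genes, and whether length entered the likeness was not tested. Among the lowest genes were Map4k5, with -0.33 and -0.32 on the plates, Rictor, Irx2 and Manba.

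Other genes of mitochondrial metabolism were read against the same limit, which so few of all genes passed, 0.107%, that a count of 0 in a short list is near the background. Of 42 tested assembly factors of the respiratory complexes, which chaperone subunits and insert cofactors, 0 were counted and 23 were positive, and their sum had rho of 0.18 and r of 0.21 with the OXPHOS sum, with 0.20 and 0.15 on the plates. Cox14, the most abundant, averaged 211 ± 141.8 CPM (SD over all cells). Of 18 citric acid cycle genes 0 were counted and 10 were positive, with rho of 0.090 for their sum and Mdh2 the highest at 499 ± 268 CPM (SD over all cells). Of 6 carriers and porins of the mitochondrial membranes 0 were counted and 4 were positive, among them Slc25a5, an ADP/ATP carrier, with 0.12 and 0.40 on the plates.

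Of 17 listed regulators of mitochondrial biogenesis, levels ran from 0 to 163.4 CPM. Ppargc1a, a coactivator known for inducing mitochondria in brown fat and muscle, had no read in any cell. Nrf1, whose factor binds the letters shown above, averaged 27.9 ± 61.4 CPM, Gabpa 39.6 ± 53.9, Tfam, the packaging factor of mitochondrial DNA, 44.1 ± 62.8 and Esrra 14.7 ± 33.4 CPM (SD over all cells). These 4 genes were picked for their known role and not by a rule. Of 15 tested regulators 0 passed the limit with the OXPHOS sum and 9 were positive. Myc was the most abundant of the list with 163.4 ± 144.4 CPM (SD over all cells). Of 17 glycolysis genes 0 passed it and 13 were positive, with rho of 0.11 for their sum and Ldha the highest at 1002 ± 431 CPM (SD over all cells). Of 31 proteasome genes 0 passed it and 28 were positive, and their sum had rho of 0.38 with the OXPHOS sum, with 0.50 and 0.24 on the plates.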

How the data were processed

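Read counts of single cells were analysed, 188 cells in 1 group. The values are whole-number counts per gene, deposited by the authors without normalization. GRCm38 was the build and HTSeq 0.6.0, STAR 2.5.2b and cutadapt 1.13 the tools, per the submitters' processing notes (settings: not given in the sources). No source says that strand entered the counting, so a gene and an overlapping or antisense one may share reads. Without molecular identifiers, amplified copies are counted.

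Symbols came from a table of mouse gene names (49326 of 49585 rows) and positions, lengths and 50-base words from GENCODE M21. CPM used the gene total of a cell as denominator, leaving out the 92 spike-ins. All cells were kept. No doublet caller was run, since 1 cell was sorted per well. A score is the mean z score, on the log2(CPM + 1) scale, of those list genes that reach 10 CPM in 5% of cells or more. A gene was counted where rho passed 0.3, or -0.3, on each plate. Sums set against a member exclude that member. Python 3.11.15, scipy 1.17.1, statsmodels 0.14.6 and scran 1.30.0 (R 4.3.3) were used, and the counting rules were tested on simulated data.

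The members and lists were chosen with earlier results of these data known. Named were, per complex, the 3 highest and 2 lowest genes per kb, genes of alternative forms, the 3 highest and lowest in each relation, and members past a limit. Promoter stretches exclude chromosome 18. Of other genes, the 10 highest and 5 lowest with the sum were taken, of which 1 is not reported here. The use of the principal transcript, the rates of reads between wells (from 74 genes with at least 80% of at least 100 reads in 1 well) and the limit of 3% spike-ins were chosen after the data were seen. Alternatives were other denominators, thinning to 150000 counts, left-out cells and other limits.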

Additional observations from a re-analysis of the deposited data

How the results depend on the processing

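Among the alternatives run, the denominator mattered most. Per ERCC count, rho of the sum was 0.427 with Krt10, 0.335 with G2/M, 0.443 with S phase and 0.720 with the mitochondrial genes, the last of opposite sign to the value by CPM, with 8, 5, 15 and 37 members counted as higher, and pairs of members then had a mean rho of 0.296. With scran size factors rho was 0.20 with Krt10, -0.132 with S phase and -0.0594 with the mitochondrial genes. A mean z score in place of the sum gave 0.128 with S phase. At a limit of 0.2, 3 members were counted as higher with G2/M and 1 as lower with the mitochondrial genes, and with all mitochondrial genes in place of the 13, 1 was counted as lower. At a ratio limit of 1.5, 3 members were variable. Why these values differed was not tested. With reads from other wells subtracted rho with Krt10 was -0.0786, and without mitochondrial genes in the denominator rho with the mitochondrial genes was -0.0725. No paired analysis was possible because all cells form 1 group. A relation too weak to pass 0.3 on each plate is not counted, whatever the level of the gene, so a count of 0 does not show that members are unrelated to a measure.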
